A study of Drosophila melanogaster with 24 samples.

Results

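The Hox genes of Drosophila are the 8 homeodomain genes labial (lab), proboscipedia (pb), Deformed (Dfd), Sex combs reduced (Scr), Antennapedia (Antp), Ultrabithorax (Ubx), abdominal-A (abd-A) and Abdominal-B (Abd-B). They were taken from the count table by gene symbol, which gave 8 of the 17559 gene identifiers, and all 8 passed the filter on low counts that left 10003 genes for testing. RNA-seq had been carried out on whole embryos aged 2 to 4 h, in 6 genotypes with 4 replicates each (24 libraries). Control embryos had the maternal driver alone (tub-GAL4/+), and in HDAC3 shRNA embryos (shHDAC3) that driver expressed a short hairpin RNA against the histone deacetylase gene HDAC3. The 4 rescue genotypes carried the driver, the hairpin and a single inserted copy of HDAC3 that the hairpin does not recognise, driven by the native promoter, which encoded wild-type HDAC3 (rescue WT) or its Y303F, K26A or HEBI form. Per the study, all 3 mutants were designed to lower catalysis, and the HEBI changes also interfere with binding to the corepressor SMRTER. Several features limit these groups as models. Knockdown took place in the female germline, the embryos came from crosses within the F1 generation, so that zygotic genotypes were mixed, the hairpin stock carried y, sc, v and sev alleles, and Y303F embryos also contain RNA of the endogenous HDAC3 gene according to the study.

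Hox genes encode transcription factors with a homeodomain, and each gives segments along the head-to-tail axis their identity. In the early embryo gap and pair-rule proteins switch them on in broad bands, and Polycomb and Trithorax group proteins later maintain the silent and the active state. They lie in a pair of gene complexes whose order on the chromosome follows the order of their domains in the body, the Antennapedia complex for the head and anterior thorax and the Bithorax complex for the posterior thorax and abdomen.

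In the BDGP6.54 annotation (dm6 coordinates) all 8 genes are on chromosome 3R. The Antennapedia complex holds lab (FBgn0002522, 6661427 to 6678590, minus strand), pb (FBgn0051481, 6707800 to 6742063, minus), Dfd (FBgn0000439, 6791836 to 6802428, plus), Scr (FBgn0003339, 6823120 to 6849981, minus) and Antp (FBgn0260642, 6896253 to 6999228, minus). The Bithorax complex lies 9657 kb further on and holds Ubx (FBgn0003944, 16656623 to 16734426, minus), abd-A (FBgn0000014, 16807214 to 16830049, minus) and Abd-B (FBgn0000015, 16927212 to 16972236, minus). The genes span from 10.6 kb (Dfd) to 103 kb (Antp), while their merged exons come to 2739 bases in Dfd and 11791 bases in Abd-B. None of the 8 shares an exon base with another gene of the count table. Counts were summed per gene, so that transcripts from separate promoters, as in Antp and Abd-B, could not be told apart.

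The libraries held 9.99 to 26.6 M counts. HDAC3 was at 0 in all 24 libraries, as was CG45100, which has the same exons, so neither knockdown nor transgene expression could be checked from the counts and genotypes are as labelled. Within every genotype the libraries stood apart by replicate number, with replicates 1 and 2 on one side and 3 and 4 on the other. Libraries that shared a number deviated together from their genotype means. Stage markers also differed between these pairs in control. Summed maternal transcripts (9 of 10 listed genes were in the table, and none was at 0 in all libraries) ran from 1160 to 1203 CPM (counts per M, with TMM-scaled library sizes) in replicates 1 and 2 and from 498 to 686 CPM in replicates 3 and 4. Summed early blastoderm genes (9 of 12 in the table, Sry-alpha and sala at 0) were at 3361 to 4016 CPM and at 858 to 888 CPM in these pairs. Therefore Hox results are given below for all 4 replicates, both without and with a replicate block, and the main ones also within each pair of numbers.

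All 8 genes were detected in every library, from 2 counts (pb, HDAC3 shRNA replicate 1) to 1512 counts (Antp, rescue K26A replicate 3). Levels were divided by the kb of merged exon over all annotated transcripts of a gene (1 in Dfd, 10 in Abd-B and 12 in Antp). Merged exons can be longer than any single transcript. Genes with many transcripts may thus read low, and comparisons between genes are approximate. Values after ±, here and below, are SDs with n = 4. Per kb of merged exon control embryos held 5.63 ± 2.65 CPM of Dfd, the identity gene of the maxillary and mandibular head segments. They held 4.54 ± 2.42 CPM per kb of abd-A, 3.62 ± 1.81 of Ubx and 3.33 ± 1.87 of Antp, the genes of the abdomen, posterior thorax and mid-thorax. Levels of Scr (2.18 ± 1.15 CPM per kb; labial segment and first thoracic segment), Abd-B (1.73 ± 1.02; posterior abdomen) and lab (1.48 ± 0.812; intercalary head segment) were lower. pb, which acts later in the adult mouthparts, was lowest at 0.506 ± 0.235 CPM per kb. pb came last in all 24 libraries, and Antp was above Scr in all 24. In the upper part of the order neighbours overlapped within their SDs, but the genes varied together over the libraries. Within libraries Dfd exceeded abd-A in 21 of 24 (4 of 4 in control) and abd-A exceeded Ubx in 22 (3 of 4 in control). Ubx exceeded Antp in 7 only, although in 3 of the 4 control libraries. In the lower part Scr was above Abd-B in 18 libraries and Abd-B above lab in 21. The order on the chromosome was thus not the order of the levels per kb.

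**Figure D1:**
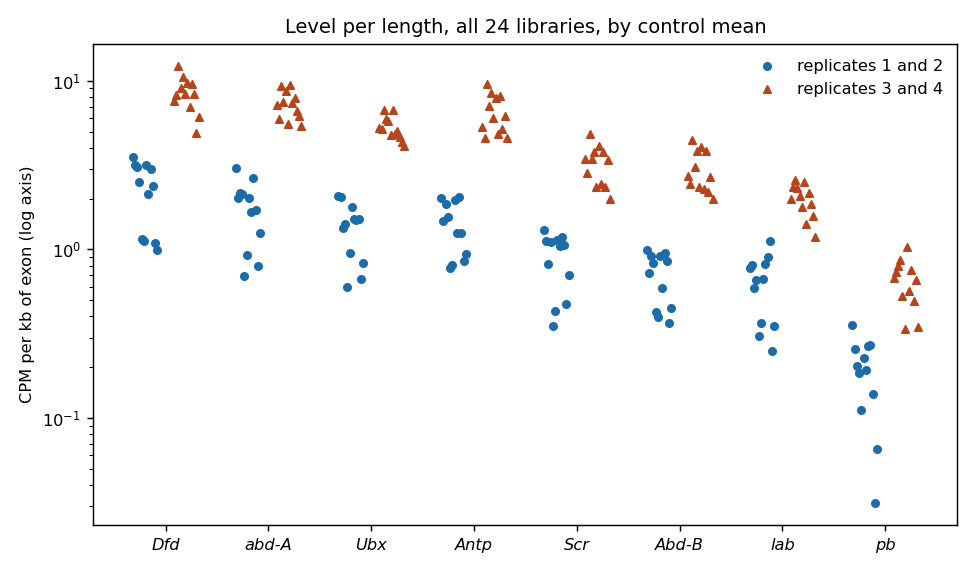
CPM per kb of merged exon (log axis) of each Hox gene in all 24 libraries, ordered by the control mean, with replicates 1 and 2 as circles and replicates 3 and 4 as triangles. Within each gene and genotype the triangles sit above the circles, and pb is lowest, with values from 0.0313 to 1.03 CPM per kb.

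Hox levels differed widely between replicate numbers. In each genotype both libraries numbered 3 and 4 were above both libraries numbered 1 and 2, for each of the 8 genes. On the log2 scale the mean difference was 1.69 for lab, 1.72 for pb, 1.98 for Dfd, 1.89 for Scr, 2.24 for Antp, 2.02 for Ubx, 2.14 for abd-A and 2.12 for Abd-B, where the median over all genes tested was 0.145. Between 0.510% (Antp) and 4.11% (lab) of all genes had a difference at or above that of the Hox gene. In the test of replicate number within genotypes (edgeR quasi-likelihood F-test), all 8 passed, with adjusted p from 6.45e-11 (Abd-B) to 2.91e-06 (pb). That test was passed by 84.0% of all genes, so the passing itself sets the Hox genes apart little.

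The size of this split depended on the genotype in the means. Summed over the 8 genes, the level was 64.8 CPM in replicates 1 and 2 and 173 CPM in replicates 3 and 4 of control, a ratio of 2.67. The ratio reached 5.61 in HDAC3 shRNA and 7.96 in K26A, and it lay at 3.79, 3.34 and 4.32 in rescue WT, Y303F and HEBI. In replicates 1 and 2 the summed level came to 27.4 CPM in HDAC3 shRNA, to 25.5 CPM in K26A, and to between 54.2 and 58.5 CPM in the other rescues. In replicates 3 and 4 it was 154 CPM in HDAC3 shRNA and 195 to 242 CPM in the rescues.

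**Figure D2:**
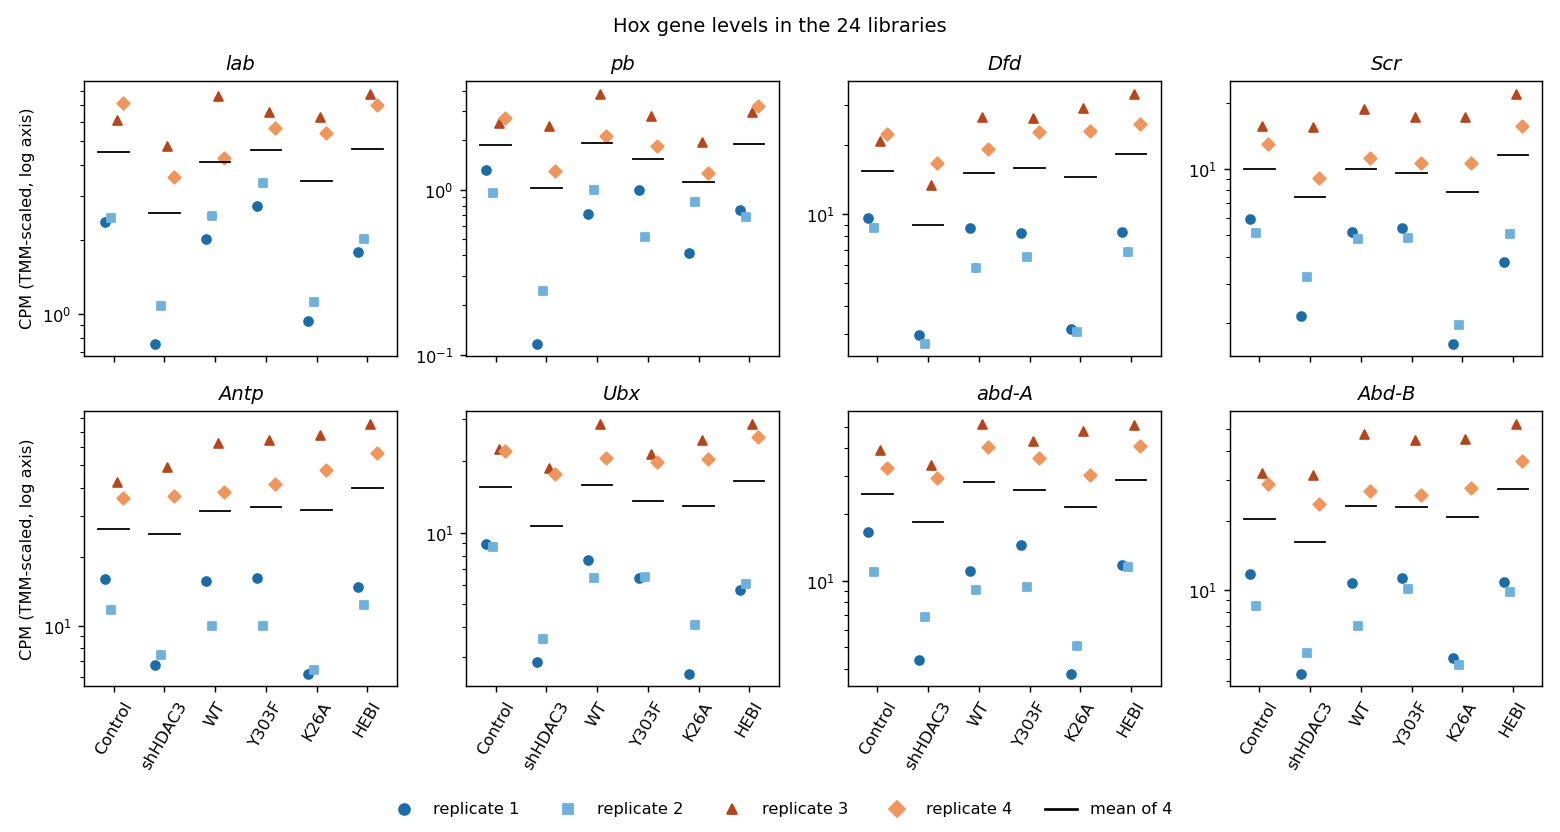
TMM-scaled CPM (log axis) of the 8 Hox genes in each library by genotype, with marker and colour for the replicate number and a line at the mean of 4. Replicates 3 and 4 lie above replicates 1 and 2 in every genotype, and replicates 1 and 2 of shHDAC3 and K26A are below those of control in each panel.

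To ask whether loss of HDAC3 changes Hox transcripts, HDAC3 shRNA embryos were compared with control. The head genes came first. lab, which patterns the intercalary segment and the midgut, stood at 2.36, 2.44, 6.10 and 7.14 CPM in control replicates 1 to 4 and at 0.759, 1.07, 4.81 and 3.61 CPM in HDAC3 shRNA. pb was at 1.33, 0.954, 2.54 and 2.72 CPM in control and at 0.117, 0.244, 2.46 and 1.29 CPM in HDAC3 shRNA, where replicates 1 and 2 rested on 2 and 5 counts. Dfd was at 9.65, 8.71, 20.9 and 22.4 CPM in control and at 2.98, 2.73, 13.5 and 16.8 CPM in HDAC3 shRNA. For each of these genes the knockdown library was below the control library of the same number in 4 of 4 pairs, whereas the ranges over all 4 replicates overlapped. The fold changes (log2, knockdown over control) were -0.81 for lab (SE 0.69, adjusted p = 0.489), -0.86 for pb (SE 0.77, adjusted p = 0.509) and -0.78 for Dfd (SE 0.77, adjusted p = 0.550) without a block. With the replicate block they were -0.99 (SE 0.26, adjusted p = 0.00387), -1.27 (SE 0.38, adjusted p = 0.00836) and -1.08 (SE 0.26, adjusted p = 0.00205).

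Scr and Antp, the genes of the posterior head and thorax, differed less. Scr was at 5.96, 5.13, 15.8 and 13.1 CPM in control and at 2.16, 3.22, 15.5 and 9.13 CPM in HDAC3 shRNA. Antp was at 15.96, 11.7, 42.1 and 36.1 CPM in control and at 6.77, 7.46, 49.3 and 36.6 CPM in HDAC3 shRNA. Scr was lower in 4 of 4 pairs, and Antp was lower in replicates 1 and 2 and slightly higher in replicates 3 and 4. The fold change of Scr was -0.41 (adjusted p = 0.757) and -0.65 with the block (SE 0.25, adjusted p = 0.0339). That of Antp was -0.08 (adjusted p = 0.961) and -0.40 with the block (SE 0.23, adjusted p = 0.151), so that Antp did not pass in either fit.

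Of the Bithorax genes, Ubx, which sets the third thoracic and first abdominal segments, stood at 8.91, 8.71, 22.4 and 22.0 CPM in control and at 2.86, 3.56, 18.6 and 17.6 CPM in HDAC3 shRNA. abd-A was at 16.6, 10.97, 39.4 and 32.4 CPM in control and at 4.38, 6.83, 33.7 and 29.4 CPM in HDAC3 shRNA. Abd-B was at 11.7, 8.53, 32.3 and 28.9 CPM in control and at 4.32, 5.32, 31.7 and 23.6 CPM in HDAC3 shRNA. All 3 were lower in 4 of 4 pairs, with the wider gaps in replicates 1 and 2. The fold changes without a block were -0.54 for Ubx (adjusted p = 0.683), -0.42 for abd-A (adjusted p = 0.767) and -0.33 for Abd-B (adjusted p = 0.822). With the block they were -0.85 (SE 0.23, adjusted p = 0.00406), -0.72 (SE 0.26, adjusted p = 0.0261) and -0.58 (SE 0.21, adjusted p = 0.0255).

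A gene was called at an adjusted p of 0.05 or less and a change of at least 2-fold. Without a block none of the 8 genes was called in HDAC3 shRNA against control, by edgeR or DESeq2, and none had an unadjusted p under 0.05 in edgeR, where 8.37% of all genes were called. The same held for the other 11 contrasts. With the block pb and Dfd were called lower, 2 of 8 genes against 20.1% of all genes. At any fold change 7 of 8 passed with the block, against 53.9% of all genes. Lower levels in 4 of 4 pairs were found for 7 of 8 genes and for 30.4% of all genes. The median log2 fold change of the 8 was -0.48 without and -0.79 with the block, and that of all genes was 0.013 and 0.0077. The blocked calls rested on single libraries: Dfd was under 2-fold without control replicate 1 (-0.99), control replicate 2 (-0.90) or HDAC3 shRNA replicate 1 (-0.95), and pb without HDAC3 shRNA replicate 1 (-0.99). lab was just under 2-fold with all libraries and reached it in several of these fits, down to -1.15 without control replicate 3, and Ubx did so without control replicate 3 (-1.03).

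Within replicates 1 and 2 the fitted change ran from -0.96 (Antp) to -2.60 (pb, which had 2 and 5 counts in the knockdown), and within replicates 3 and 4 from -0.65 (lab) to 0.13 (Antp). Tested on replicates 1 and 2 alone, 7 of 8 genes were called lower, all but Antp, against 18.2% of all genes. On replicates 3 and 4 alone none was. No share of all genes is given for replicates 3 and 4 alone, so the lack of calls there is not a result about the Hox genes. A test of the difference itself, added after the data were seen, passed for 0.0300% of all genes after adjustment. Of the 8 genes 5 had an unadjusted p under 0.05, a threshold at which no share of all genes was counted. None of the 8 passed after adjustment (lowest adjusted p = 0.0910, Ubx). A difference of the knockdown effect between the replicate pairs was therefore not shown. In the same libraries late differentiation markers were summed (18 of 19 listed genes in the table, none at 0 in all libraries). They were at 163, 561, 1773 and 577 CPM in control and at 6.71, 58.4, 179 and 71.0 CPM in HDAC3 shRNA. Without a block 16 of 16 tested were called lower, as were 697 of all 10003 genes. The list was chosen with earlier results of these data known, and the study reports lower cuticle and muscle development genes in this knockdown. These 16 calls are therefore not an independent measure of stage. Summed maternal transcripts were at 1160, 1203, 686 and 498 CPM in control and at 2082, 2014, 1241 and 971 CPM in HDAC3 shRNA. Summed early blastoderm genes were at 4016, 3361, 888 and 858 CPM in control and at 2050, 1565, 985 and 1611 CPM in HDAC3 shRNA. They were thus below control in replicates 1 and 2 and above it in replicates 3 and 4. The part of embryo stage in the Hox differences was not tested, and in whole embryos fewer expressing cells and less RNA per cell cannot be told apart.

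**Figure D3:**
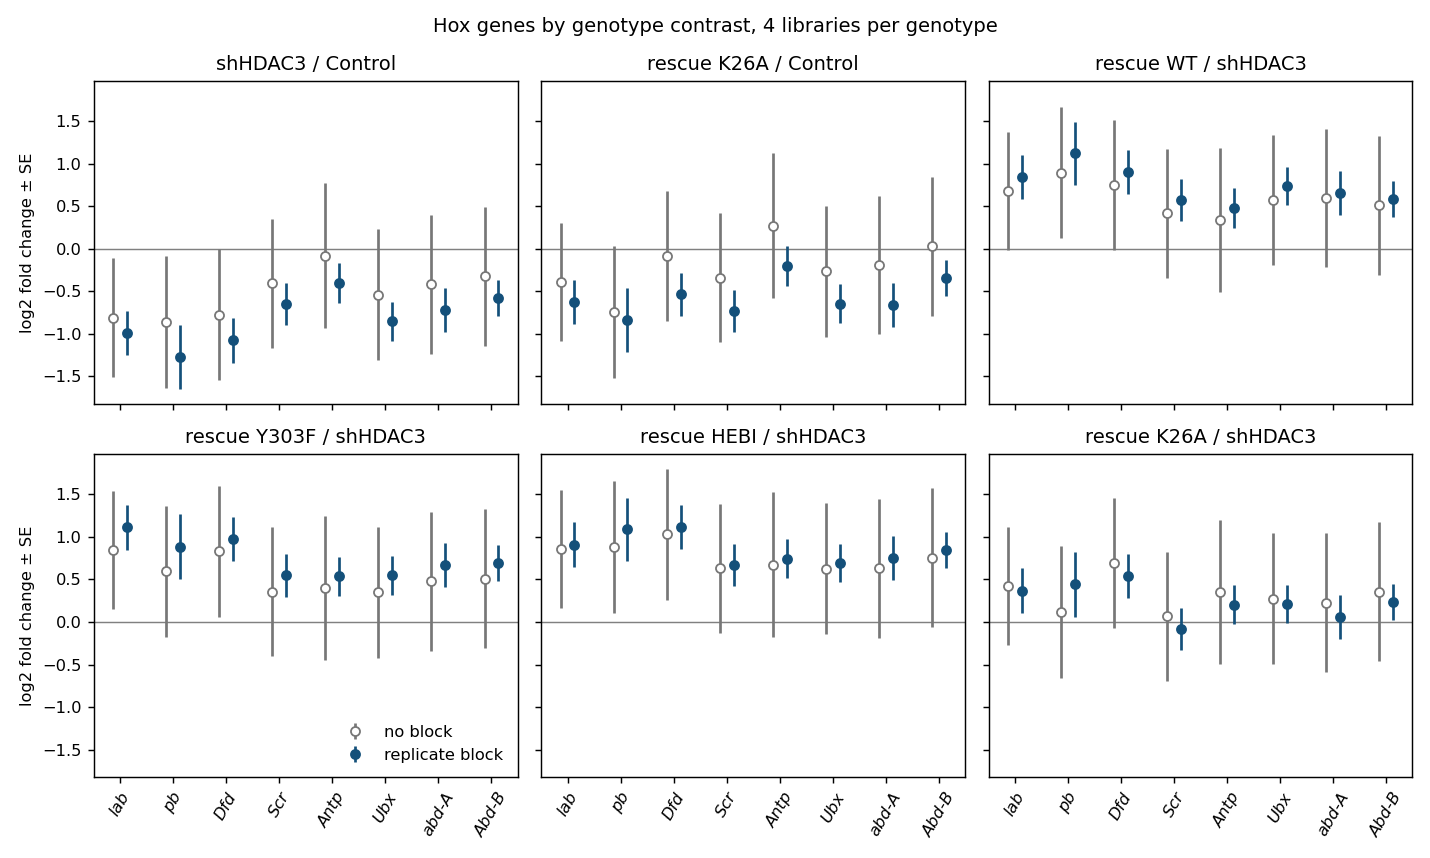
Log2 fold change ± SE of each Hox gene in 6 contrasts, without a block (open grey) and with the replicate block (filled blue), where shHDAC3 is HDAC3 shRNA. The SEs shrink with the block. Blocked values are below 0 for all 8 genes in shHDAC3 and K26A against control and above 0 for all 8 in WT, Y303F and HEBI against shHDAC3.

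The rescue genotypes were next compared with control. In rescue WT, Y303F and HEBI no Hox gene passed the test against control. The blocked log2 fold changes ran from -0.17 (Dfd) to 0.077 (Antp) in WT, from -0.39 (pb) to 0.13 (Antp) in Y303F and from -0.19 (pb) to 0.34 (Antp) in HEBI. Antp was the highest of the 8 in all 3 contrasts, which share the control libraries. Mean levels of Antp were 31.7 ± 24.04, 33.0 ± 25.0 and 39.8 ± 31.4 CPM in these rescues and 26.5 ± 14.9 CPM in control. No Hox gene was called or passed at any fold change in these contrasts, in either fit. The shares of all genes called were 0.330% (2.01% with the block) in WT, 0.740% (5.85%) in Y303F and 0.580% (3.82%) in HEBI. Within the replicate pairs the values lay on both sides of 0. In replicates 1 and 2, 14, 12 and 13 of 16 comparisons with the control library of the same number were lower in WT, Y303F and HEBI. In replicates 3 and 4, 6, 6 and 1 of 16 were. Here and below, 16 comparisons are the 8 genes in 2 pairs of libraries. The genes varied together over the libraries, so such counts are not 16 independent observations, and no share of all genes was counted beside them. In HEBI the fitted change was -0.58 in replicates 1 and 2 and 0.28 in replicates 3 and 4 for Ubx, and -0.27 and 0.43 for Dfd. The difference between the pairs passed for no Hox gene in these 3 contrasts, though Ubx and Dfd in HEBI had an unadjusted p under 0.05. At that threshold no share of all genes was counted. The SE of a blocked fold change was 0.21 to 0.37, so that small changes were not detectable at this depth and spread, least of all for pb.

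Rescue K26A held the lowest summed Hox level of the rescues in replicates 1 and 2. There Dfd was at 3.17 and 3.08 CPM against 9.65 and 8.71 CPM in control. Scr was at 1.61 and 1.96 CPM against 5.96 and 5.13 CPM, and abd-A was at 3.79 and 5.04 CPM against 16.6 and 10.97 CPM. All 16 comparisons of a Hox gene in replicates 1 and 2 were lower in K26A than in the control library of the same number. In replicates 3 and 4, 7 of 16 were. Each count is of 8 genes that varied together, in 2 pairs of libraries. Most comparisons in replicates 1 and 2 were lower in the other rescues too, as given above, and whether K26A differs from them in this was tested against WT only, where no Hox gene passed. In replicates 3 and 4 Dfd stood at 28.9 and 23.0 CPM against 20.9 and 22.4 CPM in control, and Antp at 67.5 and 47.6 CPM against 42.1 and 36.1 CPM.

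Across all 4 replicates no gene was called in K26A against control, where 3.44% of all genes were called and 12% with the block. With the block Scr (-0.73, SE 0.25, adjusted p = 0.0304) and Ubx (-0.65, SE 0.22, adjusted p = 0.0337) passed at less than 2-fold, which 33.8% of all genes did at any fold change. Scr reached 2-fold without K26A replicate 3 (-1.02). The other 6 had blocked log2 fold changes of -0.83 (pb) to -0.20 (Antp). pb was lower in 4 of 4 pairs, as were 18.5% of all genes. Tested on replicates 1 and 2 alone, 7 of 8 genes were called lower, against 10.8% of all genes. The difference between the replicate pairs was called for 4 of the 8 genes, against 8.99% of all genes. The change went from -1.55 in replicates 1 and 2 to 0.26 in replicates 3 and 4 for Dfd (adjusted p = 0.00388), from -1.41 to 0.018 for Ubx (adjusted p = 0.00641), from -1.65 to 0.12 for abd-A (adjusted p = 0.0120) and from -1.14 to 0.56 for Antp (adjusted p = 0.0264). Of the others, Scr went from -1.63 to -0.044 (adjusted p = 0.0589), while pb was at -0.87 and -0.69 and hardly differed. Dfd and Ubx kept this call without each single library in turn. The calls of Antp and abd-A were lost without control replicate 1 (adjusted p = 0.173 and 0.104), control replicate 4 (0.0852 and 0.0502), K26A replicate 1 (0.109 and 0.0841) or K26A replicate 3 (0.132 and 0.0797). That of Antp was lost also without control replicate 3, K26A replicate 2, or HEBI replicates 1 or 2 (0.0570 to 0.0769). Maternal transcripts summed to 2213, 2107, 590 and 573 CPM in K26A replicates 1 to 4, and early blastoderm genes to 2410, 1970, 1790 and 2805 CPM. Early blastoderm genes in K26A were lower in replicate 3 than in replicates 1 and 2 and highest in replicate 4, whereas in control they were lower in both replicates 3 and 4, and their part in the Hox difference was not tested.

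**Figure D4:**
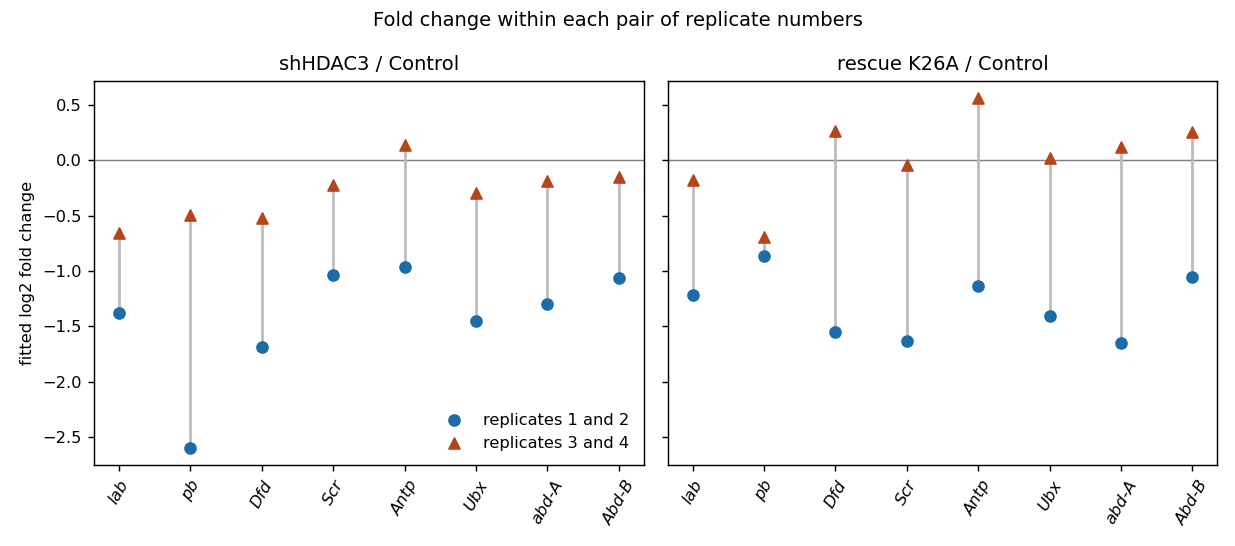
Fitted log2 fold change against control within replicates 1 and 2 (circles) and within replicates 3 and 4 (triangles) for shHDAC3 and rescue K26A, with a line joining both values of a gene. In K26A the circles lie between -0.87 and -1.65 and 5 of the triangles lie above 0, and in shHDAC3 every circle is below its triangle.

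To ask what each transgene restored, the rescues were compared with HDAC3 shRNA. In rescue WT, Y303F and HEBI each of the 8 genes was higher than in the knockdown library of the same number in 4 of 4 pairs. Such a run was found for 24.9%, 25.2% and 25.8% of all genes, and these contrasts share the knockdown libraries. Without a block no Hox gene was called in any of them (1.04%, 0.710% and 1.68% of all genes) and none had an unadjusted p under 0.05.

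With the block, HEBI was the transgene with which all 8 genes passed. Dfd rose by 1.12 (SE 0.26, adjusted p = 0.00213) and pb by 1.09 (SE 0.37, adjusted p = 0.0251) on the log2 scale, and both were called. The other 6 passed at less than 2-fold, namely lab (0.91), Abd-B (0.85), abd-A (0.75), Antp (0.74), Ubx (0.69) and Scr (0.66), with adjusted p from 0.00351 to 0.0369. In this contrast 12.1% of all genes were called and 42.5% passed at any fold change. Dfd was at 8.38, 6.83, 33.6 and 24.7 CPM in HEBI replicates 1 to 4, against 2.98, 2.73, 13.5 and 16.8 CPM in HDAC3 shRNA, so that it was higher in each pair though the ranges overlapped.

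With the WT transgene 5 of 8 genes passed with the block. pb was called (1.12, SE 0.37, adjusted p = 0.0279), and Dfd (0.90, adjusted p = 0.0128), lab (0.84, adjusted p = 0.0196), Ubx (0.74, adjusted p = 0.0183) and Abd-B (0.58, adjusted p = 0.0383) passed at less than 2-fold. The background was 9.31% called and 32.1% at any fold change. With Y303F, lab was called (1.11, SE 0.26, adjusted p = 0.00315), and Dfd (0.97, adjusted p = 0.00700) and Abd-B (0.69, adjusted p = 0.0160) passed at less than 2-fold, against 8.22% and 36.2% of all genes. The call of pb in WT was lost without HDAC3 shRNA replicates 1 or 2 or rescue WT replicates 2 or 3 (adjusted p = 0.0717 to 0.0865), and that in HEBI without HDAC3 shRNA replicates 1 or 2 or HEBI replicate 4 (adjusted p = 0.0755 to 0.115). lab in Y303F fell under 2-fold without HDAC3 shRNA replicate 1 or Y303F replicates 1 or 2 (0.94 to 0.98). Dfd passed 2-fold in WT without rescue WT replicate 4 or HDAC3 shRNA replicate 4 (1.03 and 1.11) and in Y303F without HDAC3 shRNA replicate 4 or Y303F replicates 3 or 4 (1.01 to 1.16). lab did so in WT without rescue WT replicate 4 (1.02) and in HEBI without HDAC3 shRNA replicate 3 (1.04). In replicates 1 and 2 alone, 3, 6 and 5 of the 8 genes were called higher in WT, Y303F and HEBI, against 3.67%, 10.5% and 13.9% of all genes. None was called in replicates 3 and 4 alone, a setting for which no share of all genes is given.

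K26A against HDAC3 shRNA gave no call and no gene that passed at any fold change, in either fit, with 0.190% of all genes called and 1.47% with the block. The blocked log2 fold changes ran from -0.083 (Scr) to 0.54 (Dfd, unadjusted p = 0.0485). Levels were lower than in the knockdown in 8 of 16 comparisons in replicates 1 and 2 and in 2 of 16 in replicates 3 and 4. Scr was at 1.61 and 1.96 CPM in replicates 1 and 2 of K26A and at 2.16 and 3.22 CPM in those of HDAC3 shRNA, and pb was at 0.416 and 0.841 CPM against 0.117 and 0.244 CPM.

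Each mutant transgene was finally compared with the WT transgene. No Hox gene passed at any fold change in either fit, and the shares of all genes called were 0.02% in Y303F, 0.130% in K26A and 0.0400% in HEBI, or 0.530%, 2.03% and 0.610% with the block. In Y303F the blocked log2 fold changes ran from -0.23 (pb) to 0.27 (lab) and in HEBI from -0.046 (Ubx) to 0.26 (Antp). Against the WT library of the same number, 3 of 16 comparisons in replicates 1 and 2 and 12 of 16 in replicates 3 and 4 were lower in Y303F, and 8 and 2 of 16 in HEBI, and no difference between the pairs passed. In K26A all 8 were below 0, from -0.68 (pb) to -0.28 (Antp), and 3 of the 8 had an unadjusted p under 0.05, with adjusted p of 0.145 to 0.513 over the 8. pb, Scr, Ubx and abd-A were lower in K26A than in WT in 4 of 4 pairs, as were 14.8% of all genes. All 16 comparisons in replicates 1 and 2 were lower and 10 of 16 in replicates 3 and 4. The difference between the pairs passed after adjustment for no gene of the table (0%), while 6 of the 8 Hox genes had an unadjusted p under 0.05. No share of all genes was counted at an unadjusted p under 0.05, either for this difference or for the fold changes of K26A against WT. These counts are therefore not shown to be particular to the Hox genes.

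The makeup of the Hox transcripts moved less than their amount. Of the CPM summed over the 8 genes, Antp took 25.3% in the median library (19.5% to 29.1%), abd-A 19.8%, Abd-B 17.5%, Dfd 12.4%, Ubx 12.1%, Scr 7.98%, lab 3.32% and pb 1.30%. Between replicates 1 and 2 and replicates 3 and 4 the mean share went from 23.6% to 26.2% for Antp, from 4.04% to 3.11% for lab and from 8.57% to 7.52% for Scr. In HDAC3 shRNA the share of Antp was 27.0% ± 1.94 against 21.9% ± 1.09 in control, with ranges of 24.5% to 29.1% and 20.5% to 23.2% that did not overlap. It was 26.6% ± 2.29 in K26A, whose range of 23.6% to 28.6% did not overlap that of control either, 25.7% ± 2.18 in HEBI, 24.4% ± 3.67 in Y303F and 23.9% ± 1.92 in WT. In HDAC3 shRNA Dfd took 10.3% ± 2.20 against 13.4% ± 1.52, and pb 0.917% ± 0.404 against 1.64% ± 0.180. These shares are fractions of 1 sum and were chosen for display after the values were seen, so no test was made.

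Over the 24 libraries the 28 pairs of Hox genes correlated at Pearson's r of 0.885 to 0.992 (median 0.968) in log2 CPM. These points share genotypes, replicate numbers and depth, and the split by replicate number runs through all of them. The 3 genes most like each Hox gene by the same measure were HGTX, p130CAS and spdo for lab (r = 0.976 to 0.979), bru3, klg and dar1 for pb (0.947 to 0.957), CG32982, sim and stumps for Dfd (0.990 to 0.991), and klu, smal and abd-A for Scr (0.981 to 0.982). They were Abd-B, rib and FBgn0004009, which has no symbol in the tables used, for Antp (0.991 to 0.993), wor, gcm and inv for Ubx (0.984 to 0.986), noc, mirr and toy for abd-A (0.984 to 0.985), and Antp, rib and smal for Abd-B (0.989 to 0.992). Antp and Abd-B, of separate complexes, were thus among the 3 closest of each other, at r = 0.992.

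**Figure D5:**
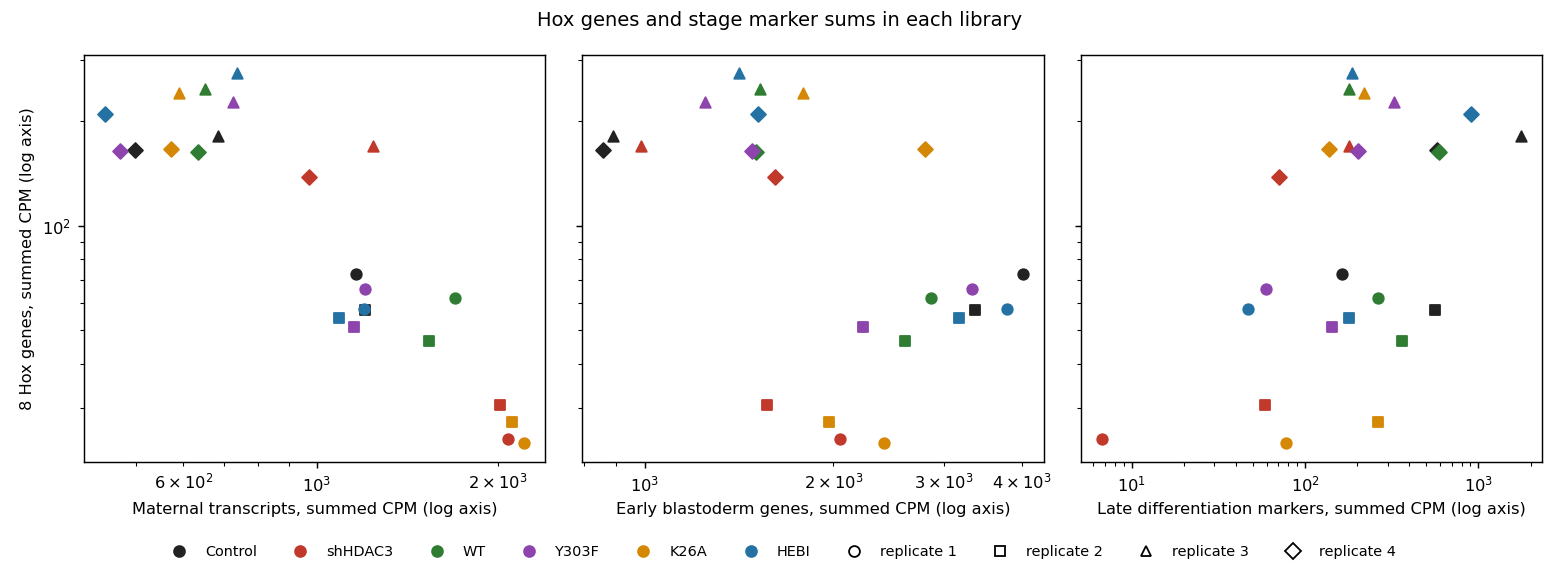
Summed CPM of the 8 Hox genes against summed CPM of maternal transcripts, early blastoderm genes and late differentiation markers (log axes), 1 point per library, with colour for genotype and marker for replicate number. Within each genotype replicates 3 and 4 have higher Hox and lower maternal sums than replicates 1 and 2, though the maternal sum of shHDAC3 replicate 3 (1241 CPM) exceeds those of replicates 1 and 2 of control, and replicates 1 and 2 of shHDAC3 and K26A lie at the lowest Hox and the highest maternal sums, from 2014 to 2213 CPM.

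Other genes in or near the Hox complexes gave a frame for these values. Of 8 listed neighbours of the Hox genes, 5 were tested. CG14609, which lies beyond the end of Antp, was not among them. None of the 5 was called in HDAC3 shRNA against control in either fit. Of all genes 8.37% were called without and 20.1% with the block. The pair-rule gene ftz, between Scr and Antp, averaged 117 ± 33.5 CPM in control, compared with 84.3 ± 64.9 CPM in HDAC3 shRNA (-0.47, adjusted p = 0.651; with the block -0.76, adjusted p = 0.0133), and Ama, an immunoglobulin-domain protein gene, was at 437 ± 221 and 311 ± 236 CPM (with the block -0.76, adjusted p = 0.00340). The dorsal gene zen, a Hox-derived gene that no longer acts along the head-to-tail axis, went the other way between replicates, from 99.0 CPM in replicates 1 and 2 to 30.2 CPM in replicates 3 and 4 of control. So did bcd, the maternal anterior determinant, from 138 to 56.3 CPM. bcd passed with the block in HDAC3 shRNA at 0.87 (SE 0.10), opposite in sign to the Hox genes. Of 10 listed noncoding genes of the Bithorax complex and the Hox microRNAs, 3 were tested. lncRNA:bxd, transcribed upstream of Ubx, averaged 19.0 ± 7.43 CPM in control, compared with 13.7 ± 11.7 CPM in HDAC3 shRNA, and passed with the block only (-0.88, SE 0.27, adjusted p = 0.0115). lncRNA:iab4 and lncRNA:iab8 did not pass (with the block -0.45 and -0.041).

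Among Hox cofactors 5 of 6 were tested and none was called without the block, against 8.37% of all genes. exd, the PBC-class partner that binds DNA with Hox proteins, held 253 ± 37.9 CPM in control, compared with 277 ± 33.6 CPM in HDAC3 shRNA (0.13, adjusted p = 0.642), and its difference between replicates 3 and 4 and replicates 1 and 2 was -0.21 on the log2 scale. hth, needed for exd to enter the nucleus, moved between replicates like the Hox genes (76.9 and 180.0 CPM in control; difference 1.96) and did not pass against control (with the block -0.46, adjusted p = 0.112). With the block the head factor gene disco was called lower (-1.08, adjusted p = 7.15e-04) and the trunk factor gene tsh passed at less than 2-fold (-0.63, adjusted p = 0.0163).

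Of 17 genes described as Hox targets, 15 were tested, 1 was called higher without the block and none lower. Of all genes 8.37% were called in that fit. CrebA, a secretory pathway regulator of the salivary gland that Scr activates, rose from 43.9 ± 7.91 CPM in control to 104 ± 24.7 CPM in HDAC3 shRNA (1.24, SE 0.26, adjusted p = 0.00452), while Scr did not pass in that fit. CrebA had ranges of 38.1 to 55.5 CPM and 67.5 to 121 CPM that did not overlap, and it was called lower in HEBI than in HDAC3 shRNA (-1.23, adjusted p = 0.0106). With the block 5 targets were called lower, among them bap (-1.38), salr (-1.26) and toe (-1.45), and CrebA stayed called higher, with a list median of -0.85. These 6 of 15 stand beside 20.1% of all genes called in either direction. bap, a visceral mesoderm gene, averaged 6.75 ± 5.11 CPM in control, compared with 3.12 ± 2.66 CPM in HDAC3 shRNA.

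Genes that control Hox expression were counted in the same way, beside 8.37% of all genes called without and 20.1% with the block. None of 13 tested early regulators, most of them gap and pair-rule genes, was called in HDAC3 shRNA against control in either fit. Their median was -0.54 without and -0.75 with the block. cnc (0.84 with the block, adjusted p = 0.00432), cad (0.54) and hb (0.18) were above 0, and the others were below 0. None of 19 tested Polycomb group genes was called (0.16 and 0.15). Of 18 tested Trithorax group genes, vtd, a cohesin subunit gene, was called higher without the block (1.02, SE 0.29, adjusted p = 0.0270), from 105 ± 20.9 to 212 ± 80.7 CPM, and was at 0.99 with the block (list median 0.31 and 0.32). The direction of the Hox median was the same with scaling by library totals alone, which moved the median of all genes to -0.20 and that of the 8 Hox genes to -0.68 in HDAC3 shRNA against control.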

How the data were processed

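RNA-seq of whole embryos was analysed from the table of counts that the authors deposited. Per the methods of the study and the submitters' processing notes, reads from a stranded total RNA kit were mapped to dm6 with STAR and counted per gene with featureCounts, with versions, annotation release and strand setting not given in the sources used here. Libraries were grouped by their labels. The 8 members and the gene lists were chosen with earlier results of these data known.

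Counts were filtered with filterByExpr, scaled by TMM and tested with the quasi-likelihood test of edgeR 4.0.16 (R 4.3.3) in 1 fit of 24 libraries with a mean per genotype, for 12 contrasts, with Benjamini-Hochberg adjustment over 10003 genes. A call needed an adjusted p of 0.05 or less and a log2 fold change of at least 1 in size. SE is the fold change over the square root of F. Symbols were found for 17253 identifiers, and 306 had none. Totals were 9.99 to 26.6 M counts, and 3 counts were worth 0.115 to 0.309 CPM. No libraries were duplicates. The fits were tested on simulated data with the same spread for all genes. The simulated genotype contrasts held no effect of replicate number, so the behaviour of the fits under the split seen here was not tested. All Hox genes were named, elsewhere in the contrasts those that passed in either fit, the 3 genes most correlated with each, and up to 4 called or neighbouring genes per list.

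Replicate numbers are shared across genotypes, and it was checked whether they pair the libraries. Over 60 pairs of libraries with the same number, deviations from the genotype means correlated at 0.184 to 0.797 (median 0.615), against a median of -0.417 between other numbers, and 21 of 24 libraries correlated best with their own number. The numbers were therefore taken as pairs, from the data alone, and a fit with the number as a block is given beside the fit without it. What the numbers stand for is not given in the labels. Without the block p-values measure the spread between these samples, and with it the spread left after the replicate number is taken out. Alternatives were DESeq2 1.42.0, RLE scaling, library totals alone, no filter, each library left out, and replicates 1 and 2 or 3 and 4 alone. The fit for a difference between these replicate pairs, and the blocked fit under the alternatives, were chosen after seeing the data.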

Additional observations from a re-analysis of the deposited data

Results flagged for a closer look

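In rescue K26A against control, the log2 fold change differed between replicates 1 and 2 and replicates 3 and 4 for 4 Hox genes, by the test of the difference itself in edgeR. The difference was -1.81 for Dfd (adjusted p = 0.00388), -1.69 for Antp (adjusted p = 0.0264), -1.43 for Ubx (adjusted p = 0.00641) and -1.77 for abd-A (adjusted p = 0.0120). The same test was passed by 8.99% of all genes. The calls of Dfd and Ubx did not depend on any single library, whereas those of Antp and abd-A did, as given above. Without control replicate 1 the difference was -1.37 for Antp and -1.36 for abd-A. This fit was added after the data were seen. Among the 48 groups of 4 libraries, 1 per gene and genotype, no library stood apart from the other 3 by Dixon's criterion.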

How the results depend on the processing

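Without a block no Hox gene was called in any of the 12 contrasts, and DESeq2, RLE scaling, library totals alone, no filter on low counts, replicates 3 and 4 alone and each library left out gave 0 as well. Shares of all genes called under these alternatives are not given here, so a lack of calls under them is not particular to the Hox genes. The replicate block gave 2 called genes in HDAC3 shRNA against control. Against HDAC3 shRNA it gave 1, 1 and 2 in rescue WT, Y303F and HEBI. In these contrasts 20.1%, 9.31%, 8.22% and 12.1% of all genes were called with the block. Replicates 1 and 2 alone gave 7 in HDAC3 shRNA and 7 in K26A against control. Against HDAC3 shRNA they gave 3, 6 and 5 in WT, Y303F and HEBI. The shares of all genes called there were 18.2%, 10.8%, 3.67%, 10.5% and 13.9%, in the same order. With the block, library totals alone gave 4 in HDAC3 shRNA against control, 2 in WT and 2 in Y303F against HDAC3 shRNA. With the block and RLE scaling lab was called as well in HDAC3 shRNA against control (-1.01, adjusted p = 0.00286). Leaving out each library in turn with the block gave 0 to 4 in HDAC3 shRNA and 0 to 2 in K26A against control, and 0 to 3, 0 to 2 and 1 to 3 in WT, Y303F and HEBI against HDAC3 shRNA. The difference between replicate pairs in K26A against control was called for 2 to 5 genes. For these alternatives of the blocked fit and of the difference, shares of all genes called are not given here, so the counts have no background beside them. Directions turned for Antp in HDAC3 shRNA against control in replicates 3 and 4 alone (0.099) and for the pb difference between replicate pairs in K26A against control with library totals alone (0.030). Without each library in turn, the unblocked log2 fold change ran from -0.64 to 0.25 for Antp and from -0.87 to 0.0059 for Abd-B in HDAC3 shRNA against control, from -0.86 to 0.027 for Ubx in K26A against control, and for Abd-B from -0.13 to 1.06 in WT and from -0.042 to 1.05 in Y303F against HDAC3 shRNA. The pb difference in K26A ran from -0.79 to 0.29. Apart from changes by construction in the number of libraries, the cause was not tested. Library totals alone moved the median of all genes to -0.20 in HDAC3 shRNA against control and to 0.12, 0.13 and 0.13 in WT, Y303F and HEBI against HDAC3 shRNA. Depth limited pb most, with 2 and 5 counts in replicates 1 and 2 of HDAC3 shRNA.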
